A study of Mus musculus with 12 samples.

Results

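The fragments described here are all tRNA-derived reads of 14 to 40 nt that were seen in livers of NS-KO D0 and WT D0 mice. They comprise 32122 of the 87699 distinct sequences in the deposited read table and 545562 of its 1705883 reads, from 4 of 12 libraries. A sequence belonged to the comparison if it had at least 1 read in any of these 4 libraries, and each distinct sequence was counted once, however many tRNAs it matched. NS-KO D0 mice (n = 2) were NSun2-/- males of the B6D2F1/Crl background that carried a small CRISPR/Cas9 deletion in NSun2, present in every cell of the body. WT D0 mice (n = 2) were males of the same background, and all mice were aged 8 to 12 weeks. D0 livers had received corn oil alone, the solvent of the carbon tetrachloride that injured the livers of the other groups. The sample labels place them at day 0, while a supplementary label dates oil controls to day 3, so their day of collection is not settled. The samples were whole livers without gall bladder, so hepatocytes and all other liver cells were sequenced together, and fewer cells of a type cannot be told apart from fewer fragments per cell. NSun2 mRNA gives no tRNA read, so the genotype labels could not be checked in these data.

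NSUN2 is a methyltransferase that places 5-methylcytosine on many nuclear and mitochondrial tRNAs, mainly next to the variable loop. DNMT2 places the same mark in the anticodon loop of a few tRNAs, and tRNAs without such marks are known to be cut more readily by angiogenin, a nuclease that cleaves the anticodon loop. Fragments are named by the part of the tRNA they come from. tRF-5a, tRF-5b and tRF-5c begin at the 5′ end and reach increasingly far into the tRNA, and tRF-3a and tRF-3b end with the added CCA. tiRNA-5 and tiRNA-3 are the products on either side of a cut in the anticodon loop, and tRF-2 is the anticodon stem and loop. tRF-1s come from the trailer, the stretch that RNase Z removes from a precursor tRNA and that ends in the run of U at which RNA polymerase III stops. Reads that met none of these definitions were listed as Other by the authors.

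The sequences on which the results turn are printed as deposited, in DNA letters, and tRNA positions were found by matching to the RefSeq annotation of GRCm38. The first set shows fragments that begin at the 5′ end of nuclear tRNAs, beneath a mature tRNA that holds the most abundant of them. Capitals mark the anticodon in the mature tRNA, at chr1:171044985-171045055, and the bases of the anticodon loop that each fragment reached.
tRNA-Gly-GCC-2-1: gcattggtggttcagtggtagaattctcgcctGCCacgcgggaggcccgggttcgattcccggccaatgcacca
tRF-5c of Gly-CCC/Gly-GCC: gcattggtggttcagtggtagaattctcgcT
tiRNA-5 of Gly-GCC: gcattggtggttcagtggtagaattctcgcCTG
tRF-5c of Val-AAC/Val-CAC: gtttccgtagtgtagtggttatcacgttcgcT
tRF-5c of Lys-CTT: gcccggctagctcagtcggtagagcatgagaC
longer 5′ fragment of Lys-TTT: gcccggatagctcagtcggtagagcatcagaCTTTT
The tRF-5c of Gly-CCC/Gly-GCC stopped within the anticodon loop, and its last base differs from that of the gene.

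The second set shows fragments of trailers, with the last run of T in capitals, followed by 3′ fragments with their CCA in capitals. Each was the most abundant sequence of its sum, and the tRF-3a the most abundant of its subtype.
tRF-1 of Met-CAT: tcggaggctttgTTTT
tRF-1 of Ile-AAT: gtggtagattcTTT
tRF-1 of Cys-GCA: agcaggctcactcTTT
tRF-1 of Trp-CCA: tctgtgttctttaTTTT
tRF-1 of Gly-TCC: acggcaaaccTTTT
trailer of His-GTG: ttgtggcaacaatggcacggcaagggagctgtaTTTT
tRF-3a of Ala-CGC/Ala-TGC: tccccggcatctccaCCA
tRF-3b of Glu-TTC: tcgactcccggtgtgggaaCCA
The His-GTG trailer was longer than the tRF-1s and was listed as Other.

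The third set comes from the mitochondrial genome, whose tRNAs are cut out of long transcripts in which they separate rRNA and protein genes. Capitals mark the anticodon in mature mt-Ser-GCT (MT 11613 to 11671), a tRNA that lacks the D arm, and the bases of its anticodon loop in the fragment. In the last fragment they mark its T run.
mature mt-Ser-GCT: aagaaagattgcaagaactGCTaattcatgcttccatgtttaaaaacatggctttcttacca
5′ fragment of mt-Ser-GCT: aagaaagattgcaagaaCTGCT
trailer of mt-Val-TAC: actaatcctagccctagccct
3′ flank of mt-Cys-GCA: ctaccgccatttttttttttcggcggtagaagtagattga
fragment of mt-Asn-GTT/mt-Cys-GCA: TTTTTcggcggtagaagaa
The reads listed as mt-Val-TAC trailer lie in mt-Rnr2, the gene of the large mitochondrial rRNA, which begins at base 1094, directly after the tRNA. The 3′ flank of mt-Cys-GCA lies at MT 5152 to 5191, mostly between the genes of mt-Cys and mt-Asn, with its last bases inside mt-Asn, which ends at base 5159. The stretch between the genes holds the origin from which the light strand is copied. Its T run is flanked by complementary arms.

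The libraries held 70818 and 46937 tRNA reads in NS-KO D0 livers, against 266322 and 161485 in WT D0 livers. A read was thus worth 14.1 and 21.3 CPM (reads of a sequence scaled to a common total of tRNA reads) in NS-KO D0 livers, against 3.76 and 6.19 CPM in WT D0 livers. Of all D0 reads, 52.9% were listed under more than 1 isodecoder and 52.3% carried a mismatch, so such reads are named by every isodecoder they match. No RNA of known amount was added, and the values are therefore shares of tRNA reads, not amounts per liver. With 2 livers per genotype, an exact two-sided permutation test cannot give a p below 0.333, so shares are given for each liver with the statement whether the genotypes overlapped. p-values were taken only from limma fits across all features, and they measure the spread between livers prepared as independent biological replicates.

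tRF-5c fragments made up most tRNA reads of WT livers and a minor part of those of NS-KO livers. They took 15.4% and 12.5% of reads in NS-KO D0 livers, against 71.5% and 64.35% in WT D0 livers. Wilson 95% intervals, which cover counting error only, ran from 12.2% to 12.8% in the shallowest NS-KO library and from 64.1% to 64.6% in the shallower WT library. Reads outside tRF-5c numbered 59898 and 41063 in NS-KO D0 libraries, against 75789 and 57570 in WT D0 libraries, so the libraries differed far less in all that was not tRF-5c.

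The other subtypes except tiRNA-5, which overlapped between the genotypes, took larger shares of all reads in NS-KO livers. Other held 69.2% and 69.8% of reads in NS-KO D0 livers, against 22.7% and 27.75% in WT D0 livers. tRF-1s held 8.70% and 10.75% in NS-KO D0 livers, against 1.66% and 2.26% in WT D0 livers. tRF-3b held 0.602% and 0.712% in NS-KO D0 livers, against 0.166% and 0.238% in WT D0 livers. tRF-5a held 0.717% and 0.712% in NS-KO D0 livers, against 0.241% and 0.299% in WT D0 livers. In all 4 subtypes both NS-KO livers lay above both WT livers.

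Among reads outside tRF-5c the subtypes moved apart. tRF-1s took 10.3% and 12.3% of these in NS-KO D0 livers, against 5.83% and 6.34% in WT D0 livers, again without overlap. tRF-3a took 3.20% and 3.49% in NS-KO D0 livers, against 6.02% and 7.55% in WT D0 livers, although its share of all reads was higher in NS-KO livers (2.71% and 3.06%, against 1.71% and 2.69% in WT livers). tiRNA-5 also took less, 2.09% and 1.79% in NS-KO D0 livers, against 5.82% and 5.62% in WT D0 livers. The share of Other overlapped between the genotypes, at 81.8% and 79.7% in NS-KO D0 livers and 79.9% and 77.8% in WT D0 livers.

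By position, the lower share lay in nuclear reads that begin at the first base and end in the anticodon arm. These were 22.8% and 20.7% of reads in NS-KO D0 livers, against 78.4% and 71.7% in WT D0 livers. Nuclear trailers stood at 11.2% and 14.1% in NS-KO D0 livers, against 2.14% and 2.92% in WT D0 livers. Most trailer reads were listed as tRF-1, and those listed as Other were also more frequent, at 2.715% and 3.51% in NS-KO D0 livers, against 0.521% and 0.736% in WT D0 livers. Leaders, the stretches that RNase P removes from the 5′ end of precursors, held 0.422% and 0.637% in NS-KO D0 livers, against 0.0882% and 0.1115% in WT D0 livers. Most leader reads came from His-GTG. It gave 257 of 299 and 273 of 299 leader reads in NS-KO D0 libraries, against 195 of 235 and 141 of 180 in WT D0 libraries. The leader share thus describes mainly this tRNA.

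**Figure D1:**
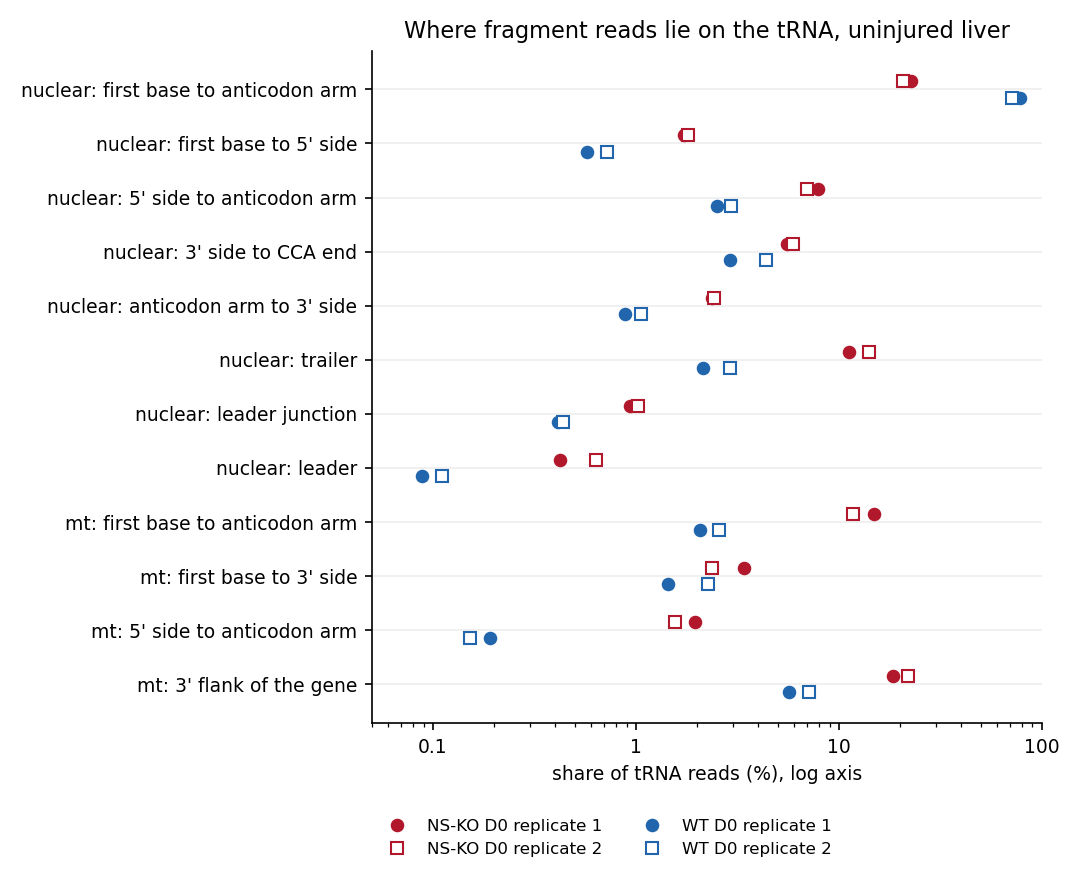
Share of tRNA reads (%, log axis) by where a read starts and ends on the tRNA, for nuclear and mitochondrial (mt) tRNAs, with 1 point per library. Reads from the first base to the anticodon arm of nuclear tRNAs were lower in both NS-KO livers (22.8% and 20.7%, against 78.4% and 71.7%), and the 2 genotypes did not overlap in any other class drawn, where NS-KO livers were higher.

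For tests, reads were summed by subtype and isodecoder, and 281 sums with enough reads were fitted. Under TMM scaling, which sets the bulk of sums at no change, 14 sums rose and 27 fell in NS-KO D0 livers (limma, adjusted p under 0.05), which is 4.98% and 9.61% of the sums and 14.6% in all. Scaled by library size alone, 115 rose (40.9%) and 6 fell (2.14%), or 43.1%, and the median log2 fold change was 1.27 in place of 0.04. Fold changes are given under TMM scaling, that is, relative to the bulk of fragments, unless library size is named. The calls depended on every library: without NS-KO D0 replicate 1 or 2 they numbered 8 and 4, and without WT D0 replicate 1 or 2 they numbered 7 and 0 (limma, with 29 higher and 27 lower at an unadjusted p under 0.05 for the last).

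**Figure D2:**
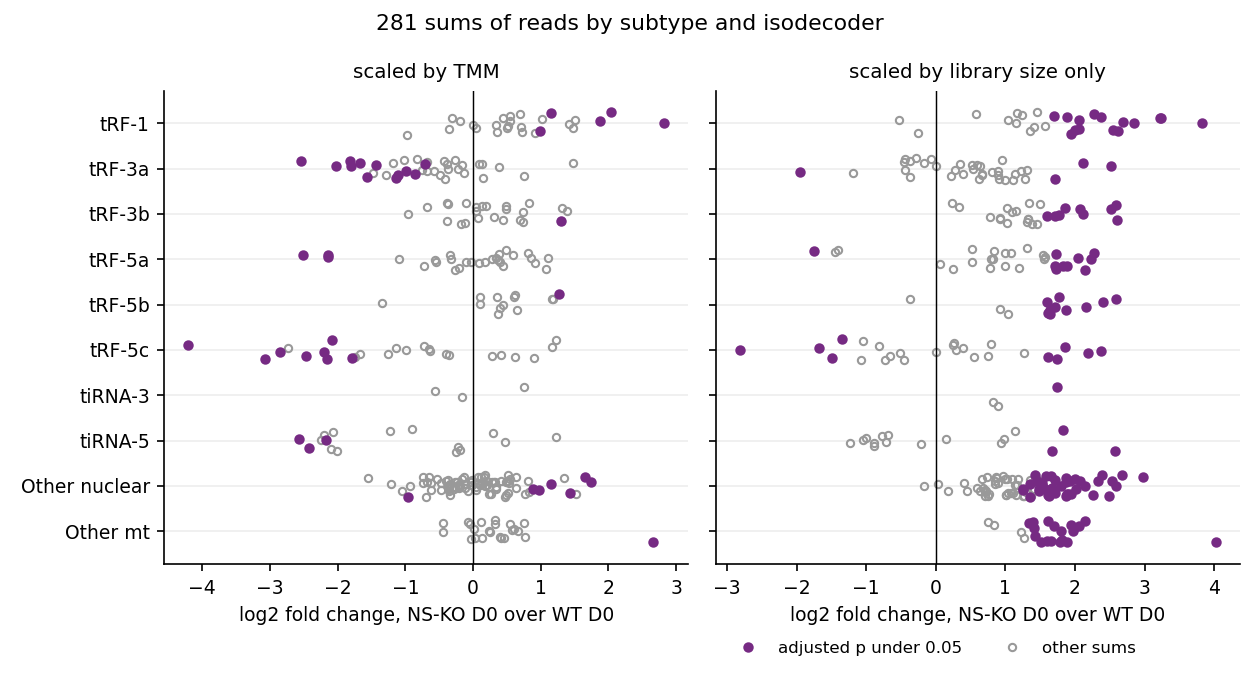
log2 fold change of the 281 sums in NS-KO D0 over WT D0 livers by subtype, under TMM scaling (left) and library size alone (right), with 1 point per sum. Filled points passed an adjusted p of 0.05 in limma, 14 higher and 27 lower on the left and 115 higher and 6 lower on the right.

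Most tRF-5c reads came from Gly-CCC/Gly-GCC. Their tRF-5c reached 84410 and 70180 CPM in NS-KO D0 livers, against 582100 and 508000 CPM in WT D0 livers. The sum fell by 4.21 on the log2 scale (SE 0.75, adjusted p = 0.013, limma), and also with library size alone, by 2.82 (adjusted p = 1.5e-06). tRF-5c listed under Gly-GCC alone stood at 8628 and 7116 CPM in NS-KO D0 livers, against 26130 and 24370 CPM in WT D0 livers, and fell by 3.07 (SE 0.64, adjusted p = 0.02). The 2 genotypes did not overlap in either sum.

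Other 5′ fragments of these glycine tRNAs fell as well. tiRNA-5 of Gly-GCC held 974.3 and 1193 CPM in NS-KO D0 livers, against 1941 and 2607 CPM in WT D0 livers, a log2 fold change of -2.42 (SE 0.70, adjusted p = 0.045), and missed the threshold with library size alone (-1.05, adjusted p = 0.097). Short tRF-5a of Gly-CCC/Gly-GCC fell by 2.51 (SE 0.62, adjusted p = 0.029), with 56.5 and 0 CPM in NS-KO D0 livers, against 67.6 and 123.9 CPM in WT D0 livers. These are 4 and 0 reads in NS-KO D0 libraries, against 18 and 20 in WT D0 libraries, so its fold change is poorly set. Of 11 sums that contain Gly-GCC, 5 fell and none rose, beside 9.61% and 4.98% of all sums, with a median log2 fold change of -1.55, beside 0.04 for all 281 sums.

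The same direction was seen in tRF-5c of valine tRNAs and of Lys-CTT. tRF-5c of Val-AAC/Val-CAC held 15170 and 12190 CPM in NS-KO D0 livers, against 26990 and 30440 CPM in WT D0 livers, and fell by 2.46 on the log2 scale (SE 0.60, adjusted p = 0.029). tRF-5c of Lys-CTT held 2104 and 1640 CPM in NS-KO D0 livers, against 3053 and 3567 CPM in WT D0 livers (log2 fold change -2.20, SE 0.62, adjusted p = 0.043). With library size alone neither passed the threshold (adjusted p = 0.067 and 0.18), although the genotypes did not overlap in CPM. In Lys-CTT this held for tRF-5c only. Its tiRNA-5 overlapped between the genotypes, at 2090 and 1683 CPM in NS-KO D0 livers and 1630 and 1771 CPM in WT D0 livers. All its reads that began at the first base numbered 1348 and 974 in NS-KO D0 libraries, against 2173 and 1507 in WT D0 libraries. They were a larger part of all tRNA reads in NS-KO livers. tRF-5c of Glu-CTC, the next most abundant source, held 31530 and 21730 CPM in NS-KO D0 livers, against 67930 and 65500 CPM in WT D0 livers. It missed the threshold under TMM scaling (log2 fold change -2.74, SE 0.83, adjusted p = 0.053) and passed it with library size alone (-1.35, adjusted p = 0.02).

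tRF-5b of Leu-CAG rose, with 706.0 and 724.4 CPM in NS-KO D0 livers, against 116.4 and 99.1 CPM in WT D0 livers (log2 fold change 1.27, SE 0.34, adjusted p = 0.037). Other short 5′ sums of these leucine tRNAs did not pass: the log2 fold change was 1.16 for tRF-5b of Leu-CAA/Leu-CAG (adjusted p = 0.051), -1.09 for tRF-5a of Leu-CAA/Leu-CAG (adjusted p = 0.28) and -0.21 for tRF-5a of Leu-CAG (adjusted p = 0.77). In all, of 65 sums of nuclear 5′ fragments 14 fell and 1 rose, beside 9.61% and 4.98% of all sums, with a median of -0.57. Scaled by library size alone, 5 fell and 18 rose, beside 2.14% and 40.9% of all sums, with a median of 0.52.

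Of 2337 single fragments fitted, 125 rose (5.35%) and 195 fell (8.34%), or 13.7% in all. With library size alone 437 rose (18.7%) and 146 fell (6.25%), or 24.9%. Under TMM scaling 161 of the fragments that fell were among the 345 tRF-5c fragments tested. No tRF-5c fragment rose. The longer 5′ fragment of Lys-TTT that spans the anticodon rose instead, with 338.9 and 681.8 CPM in NS-KO D0 livers, against 18.8 and 18.6 CPM in WT D0 livers (log2 fold change 3.01, SE 0.83, adjusted p = 0.031). Of all fragments that fell, 127 came from Gly-CCC/Gly-GCC, of which 235 were tested. Of these 127, 121 differed from the tRNA sequence by 1 base. The most abundant of them, printed as tRF-5c of Gly-CCC/Gly-GCC, held 23200 and 17640 CPM in NS-KO D0 livers, against 200700 and 164700 CPM in WT D0 livers (log2 fold change -4.26, SE 0.80, adjusted p = 0.0053). When reads with a mismatch were left out, 1170 fragments were tested and 57 called (4.87%), 24 higher and 33 lower.

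Nuclear 5′ fragments also ended at other bases. Positions are numbered so that the anticodon is 34 to 36, and 17373 and 10549 reads in NS-KO D0 libraries, against 210284 and 116991 in WT D0 libraries, began at the first base of a nuclear tRNA and were placed in this way. Those that ended at base 32, in the anticodon loop before the anticodon, were 34.2% and 27.7% in NS-KO D0 livers, against 68.7% and 64.2% in WT D0 livers. Reads that ended within or beyond the anticodon were 20.8% and 27.2% in NS-KO D0 livers, against 3.95% and 5.05% in WT D0 livers. Those that ended before base 30 were 11.2% and 13.6% in NS-KO D0 livers, against 1.51% and 2.32% in WT D0 livers.

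Since the tRNAs that gave the reads also differed between genotypes, ends were compared within each of 10 tRNA sets with at least 100 reads in every library. The share ending within or beyond the anticodon was higher in both NS-KO livers than in both WT livers in 7 of the 10 sets (70%), lower in 1 (10%) and overlapping in 2. The share ending at base 32 was lower in 8 of the 10 (80%).

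Lys-CTT is an example. In this set 5′ fragments ended within or beyond the anticodon in 79.5% and 81.2% of reads in NS-KO D0 livers, against 45.4% and 43.9% in WT D0 livers. Val-CAC was similar, with 78.2% and 81.1% in NS-KO D0 livers, against 48.65% and 45.0% in WT D0 livers. In Glu-CTC the share was 25.5% and 40.5% in NS-KO D0 livers, against 10.2% and 10.6% in WT D0 livers. In each of these 3 sets the genotypes were well apart.

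In Gly-CCC/Gly-GCC, where few reads passed the anticodon, the shift was by a base: ends at 33 were 14.7% and 24.7% in NS-KO D0 livers, against 6.08% and 7.52% in WT D0 livers. Per read that ended at base 32, there were 0.218 and 0.436 reads ending at base 33 in NS-KO D0 livers, against 0.0738 and 0.0953 in WT D0 livers. Glu-TTC was the exception, with 46.2% and 37.8% within or beyond the anticodon in NS-KO D0 livers, against 58.9% and 56.0% in WT D0 livers.

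**Figure D3:**
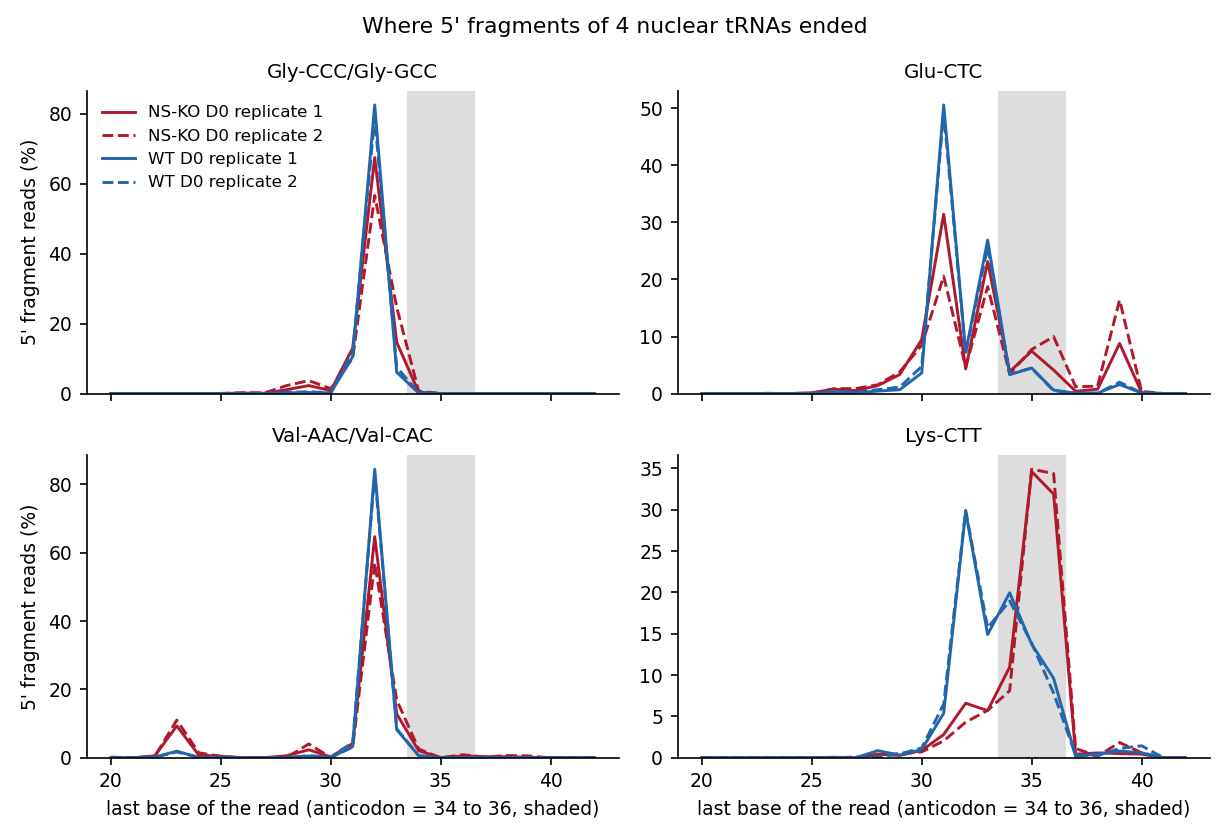
Share of 5′ fragment reads (%) by the last base of the read in 4 nuclear tRNA sets, with 1 line per library and the anticodon, 34 to 36, shaded. In Lys-CTT both NS-KO lines peak inside the anticodon and both WT lines at base 32, and in Gly-CCC/Gly-GCC all 4 lines peak at base 32.

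tRF-3a sums of several nuclear tRNAs fell against the bulk of fragments. Of 34 nuclear tRF-3a sums, 12 fell and none rose, beside 9.61% and 4.98% of all sums, with a median log2 fold change of -0.73, while with library size alone 1 fell, 1 rose and the median was 0.56, so the direction turns with the scaling. tRF-3a of Leu-CAA/Leu-CAG held 1327 and 1640 CPM in NS-KO D0 livers, against 1787 and 2260 CPM in WT D0 livers, and fell by 1.82 (SE 0.22, adjusted p = 0.0014). tRF-3a of Gly-TCC held 14.1 and 0 CPM in NS-KO D0 livers, against 41.3 and 92.9 CPM in WT D0 livers (log2 fold change -2.54, SE 0.45, adjusted p = 0.013), which in NS-KO livers is at most 1 read per library. It was the only nuclear tRF-3a that also fell with library size alone (adjusted p = 0.017).

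The longer tRF-3b moved in the opposite direction in glutamate tRNA. tRF-3b of Glu-TTC held 677.8 and 724.4 CPM in NS-KO D0 livers, against 75.1 and 142.4 CPM in WT D0 livers, and rose (log2 fold change 1.29, SE 0.28, adjusted p = 0.023). tRF-3a of the same tRNA held 56.5 and 63.9 CPM in NS-KO D0 livers, against 82.6 and 80.5 CPM in WT D0 livers (adjusted p = 0.11). In the NS-KO D0 libraries 3 reads are 42.4 and 63.9 CPM, so this tRF-3a rests on very few reads. The 2 lengths of 3′ fragment of Glu-TTC stood on opposite sides of WT in CPM, but the difference in tRF-3a did not pass.

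All 9 tRF-1 isodecoders that the study singles out had both NS-KO livers above both WT livers in CPM, beside 77.2% of all 281 sums that were higher and 8.9% that were lower without overlap. Of these 9, 4 rose under TMM scaling, with a median of 1.16, and 7 rose with library size alone. The study chose them on these same samples, so they are no independent evidence of direction. Over all 26 tRF-1 sums, 5 rose and none fell, with a median of 0.62, beside 4.98% of all sums that rose. Scaled by library size alone, 15 rose and none fell, beside 40.9% of all sums that rose.

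tRF-1 of Met-CAT, the most abundant, reached 47810 and 62620 CPM in NS-KO D0 livers, against 8396 and 10460 CPM in WT D0 livers (log2 fold change 1.16, SE 0.28, adjusted p = 0.029). tRF-1 of Ile-AAT held 2160 and 2471 CPM in NS-KO D0 livers, against 214.0 and 253.9 CPM in WT D0 livers, and rose by 1.88 on the log2 scale (SE 0.28, adjusted p = 0.005). tRF-1 of Gly-TCC had the highest log2 fold change of the 281 sums at 2.83 (SE 0.56, adjusted p = 0.019), with 423.6 and 255.7 CPM in NS-KO D0 livers, against 3.76 and 18.6 CPM in WT D0 livers. The WT values of the last are 1 and 3 reads, so its fold change is poorly set.

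tRF-1 of Trp-CCA also rose, with 395.4 and 319.6 CPM in NS-KO D0 livers, against 33.8 and 18.6 CPM in WT D0 livers (log2 fold change 2.03, adjusted p = 0.032). tRF-1 of Cys-GCA rose, with 3869 and 5348 CPM in NS-KO D0 livers, against 736.0 and 1028 CPM in WT D0 livers (log2 fold change 0.99, adjusted p = 0.023). tRF-1 of Arg-ACG was abundant and did not pass, with 14530 and 16300 CPM in NS-KO D0 livers, against 3312 and 4855 CPM in WT D0 livers (log2 fold change 0.55, adjusted p = 0.22). The tRF-1 sum of Asn-GTT stood at the bulk of fragments, at 974.3 and 1236 CPM in NS-KO D0 livers, against 345.4 and 507.8 CPM in WT D0 livers (log2 fold change 0.00, adjusted p = 1).

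The study's own list for D0 gives 9 single tRF-1 sequences, of which 6 had enough reads to be fitted and 3 rose, beside 5.35% of all fragments. They too were chosen on these same libraries, so the choice fixes their direction and they are no independent evidence of it. In 8 of the 9 both NS-KO livers were above both WT livers, and most had very few reads. tRF-Ser-AGA-017 had 37 and 15 reads in NS-KO D0 libraries, against 10 and 7 reads in the deeper WT D0 libraries. tRF-Gly-TCC-004 had 13 and 3 reads in NS-KO D0 libraries, against 0 in both WT D0 libraries, where 3 reads would be 11.3 and 18.6 CPM.

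Long trailer reads of His-GTG were listed as Other. As a sum by position, all trailer reads of His-GTG held 7540 and 12830 CPM in NS-KO D0 livers, against 1010 and 1449 CPM in WT D0 livers, and rose by 1.43 on the log2 scale (SE 0.34, adjusted p = 0.027). The 37 nt sequence printed above held 946.1 and 1555 CPM in NS-KO D0 livers, against 93.9 and 99.1 CPM in WT D0 livers. A trailer from another His-GTG gene on chromosome 2, 39 nt long, had 30 and 46 reads in NS-KO D0 libraries, against 2 and 2 reads in WT D0 libraries, and had the highest fold change of the fragments fitted (log2 fold change 3.96, SE 0.52, adjusted p = 0.0021). Reads in the body of His-GTG, from the first base to the anticodon arm, overlapped between the genotypes, at 3022 and 2344 CPM in NS-KO D0 livers and 2617 and 2118 CPM in WT D0 livers.

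Sums by position gave 29 calls among 500, or 5.8%, with 11 higher (2.2%) and 18 lower (3.6%). With library size alone 199 were higher (39.8%) and 3 lower (0.6%), or 40.4%. Among the calls under TMM scaling were the trailers of Ile-AAT (log2 fold change 1.45, adjusted p = 0.016), of Val-TAC (1.60, adjusted p = 0.032) and of Gly-TCC (2.57, adjusted p = 0.015). The 3′ part of Val-TAC, from the anticodon arm to CCA, fell instead, with 42.4 and 21.3 CPM in NS-KO D0 livers, against 180.2 and 222.9 CPM in WT D0 livers (log2 fold change -3.48, SE 0.95, adjusted p = 0.044). Its NS-KO values are 3 and 1 reads, so its fold change is poorly set. None of the 29 calls was left when any 1 of the 4 D0 libraries was taken out, where 24 to 49 sums passed an unadjusted p under 0.05 in either direction (limma).

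Ratios within a tRNA family do not depend on the scaling between libraries, and these were chosen after the values had been seen. The log2 ratio of trailer reads to 3′ fragment reads was higher in both NS-KO livers in all 13 amino acid families with at least 10 reads of each kind in every library (100%), with a median difference of 1.28. In isoleucine tRNAs it was 1.68 and 1.64 in NS-KO D0 livers, against -0.52 and -0.72 in WT D0 livers. In methionine tRNAs it was 6.46 and 6.295 in NS-KO D0 livers, against 5.08 and 5.12 in WT D0 livers. Asparagine tRNAs differed least, at 1.42 and 1.67 in NS-KO D0 livers and 1.42 and 1.39 in WT D0 livers.

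The ratio of 5′ to 3′ fragment reads did not move as a whole, with a median difference of 0.20 over 11 families. It was lower without overlap in 3 (27.3%) and higher in 4 (36.4%). Glycine tRNAs had log2 ratios of 6.03 and 5.32 in NS-KO D0 livers, against 9.54 and 8.805 in WT D0 livers, and glutamate tRNAs 4.22 and 3.68 in NS-KO D0 livers, against 6.73 and 6.27 in WT D0 livers. Leucine tRNAs went up, at -0.63 and -0.91 in NS-KO D0 livers, against -2.75 and -2.68 in WT D0 livers. The families with a lower ratio were glycine, glutamate and valine, those with the highest ratios in WT livers.

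**Figure D4:**
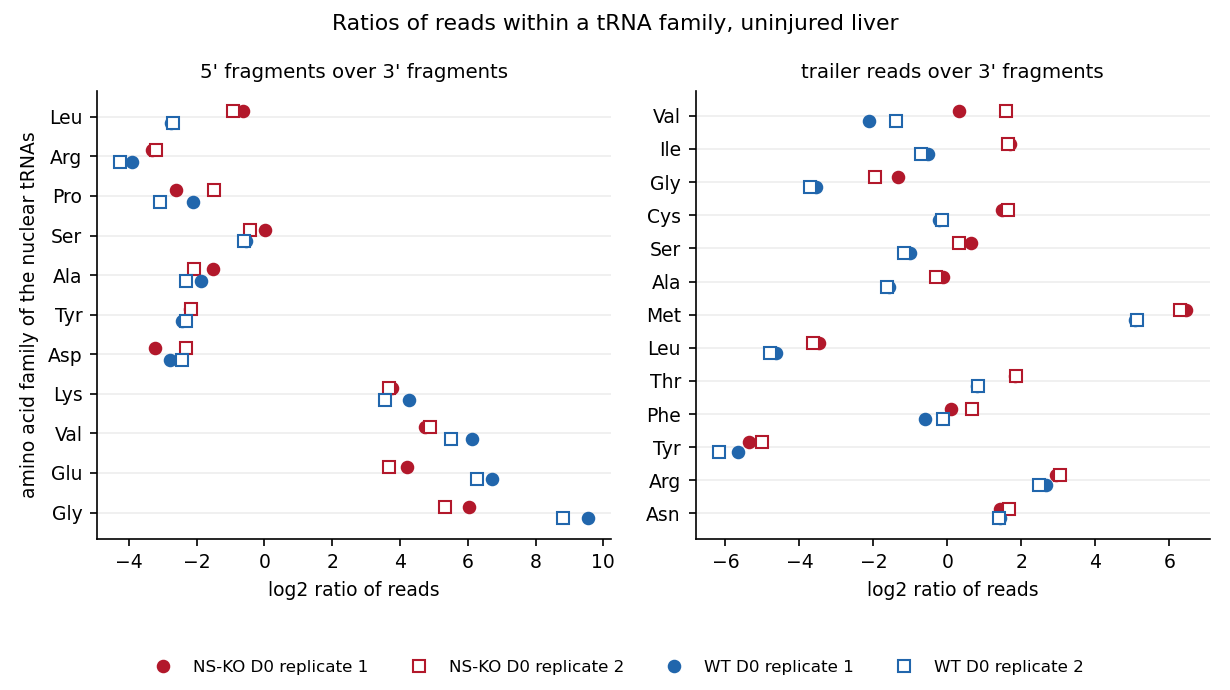
log2 ratio of 5′ fragment reads (left) and of trailer reads (right) to 3′ fragment reads within amino acid families of nuclear tRNAs, with 1 point per library. The right panel shows NS-KO above WT in 13 of 13 families, and the left panel shows glycine, glutamate and valine lower, 4 families higher and 4 overlapping.

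Reads listed under mitochondrial tRNAs took a larger share in NS-KO livers. They were 43.7% and 42.7% in NS-KO D0 livers, against 10.8% and 14.0% in WT D0 livers. These include the mt-Val-TAC trailer reads, which lie in an rRNA gene. Reads of mature mitochondrial tRNAs alone were 24.98% and 20.44% in NS-KO D0 livers, against 5.004% and 6.758% in WT D0 livers. Outside tRF-5c, all reads listed under mitochondrial tRNAs were 51.7% and 48.8% in NS-KO D0 livers, against 37.95% and 39.3% in WT D0 livers. The genotypes did not overlap in any of these shares. All 21 mature mitochondrial tRNAs with reads had higher shares in both NS-KO livers, by 2.26 to 6.58 times (median 3.63), beside 77.2% of all 281 sums that were higher without overlap. Against the bulk of fragments the change was small: of 53 mitochondrial sums 1 rose and none fell, with a median log2 fold change of 0.41, beside 4.98% of all sums that rose. Scaled by library size alone, 36 rose, beside 40.9% of all sums.

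mt-Ser-GCT was the main source of mature mitochondrial reads. Its mature reads were 18.5% and 14.1% of all tRNA reads in NS-KO D0 livers, against 3.34% and 4.47% in WT D0 livers. Almost all began at its first base, 91.0% and 91.2% in NS-KO D0 livers, against 95.9% and 97.6% in WT D0 livers, and their ends differed, as seen after the values had been examined. Reads ending at bases 21 to 23, in and just after the anticodon at 20 to 22, were 51.7% and 54.8% in NS-KO D0 livers, against 30.8% and 24.75% in WT D0 livers. Reads ending at bases 31 to 34, beyond the anticodon arm, were 14.1% and 12.8% in NS-KO D0 livers, against 33.1% and 37.7% in WT D0 livers.

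The 22 nt fragment printed above, which ends with the anticodon, held 34370 and 27250 CPM in NS-KO D0 livers, against 3804 and 3926 CPM in WT D0 livers, and rose by 1.89 on the log2 scale (SE 0.55, adjusted p = 0.039). Reads of mt-Ser-GCT that began a few bases in and ended in the anticodon arm held 15550 and 11590 CPM in NS-KO D0 livers, against 1156 and 749.3 CPM in WT D0 livers (log2 fold change 2.25, SE 0.60, adjusted p = 0.04). Of 152 fragments of mt-Ser-GCT fitted, 27 rose and none fell, beside 5.35% and 8.34% of all fragments.

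**Figure D5:**
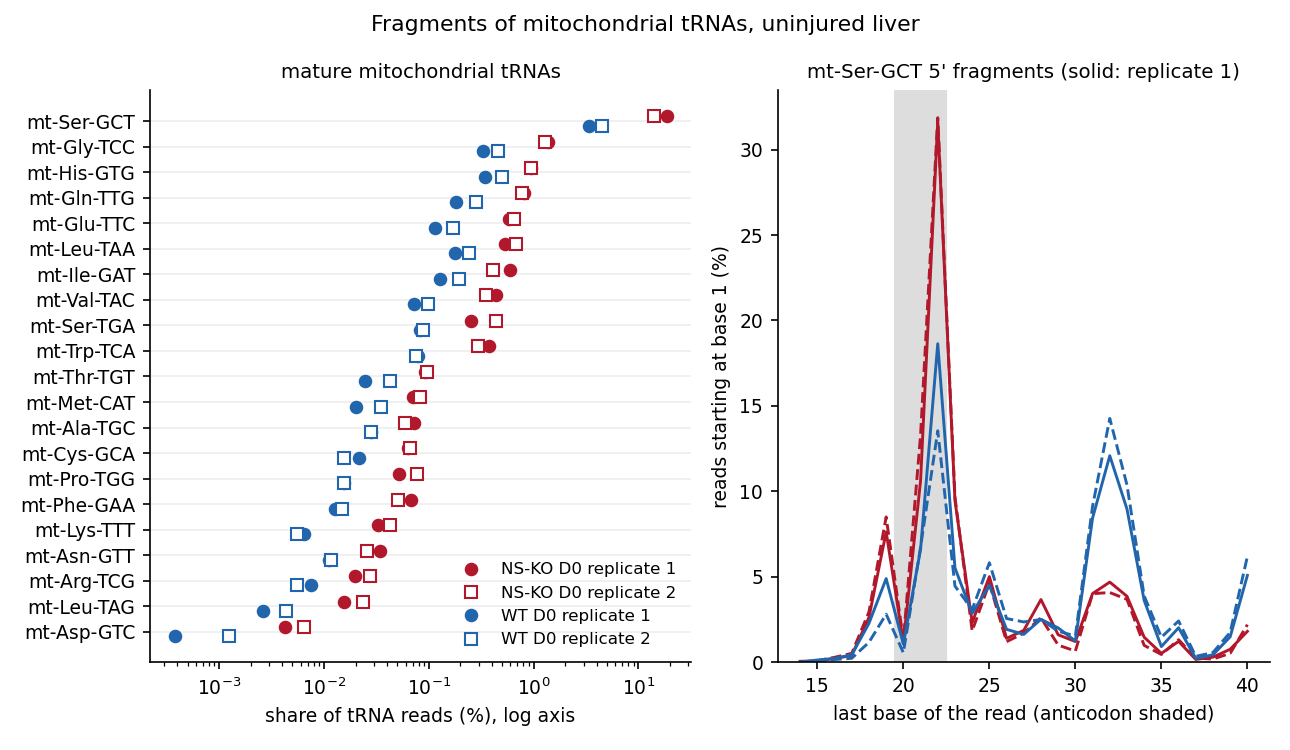
Left, share of tRNA reads (%, log axis) of each mature mitochondrial tRNA, with 1 point per library. Right, last base of mt-Ser-GCT reads that start at base 1 (% of those reads), with NS-KO in red and WT in blue and the anticodon shaded. All 21 tRNAs were higher in both NS-KO livers, and base 22 took 31.6% and 31.9% of reads in NS-KO livers, against 18.6% and 13.55% in WT livers.

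The only mitochondrial sum by subtype that rose under TMM scaling came from the stretch between mt-Cys and mt-Asn. Reads of type Other listed under mt-Asn-GTT/mt-Cys-GCA held 10080 and 7563 CPM in NS-KO D0 livers, against 709.7 and 383.9 CPM in WT D0 livers, and rose by 2.65 on the log2 scale (SE 0.62, adjusted p = 0.029). Of 24 single fragments of this stretch fitted, 14 rose and none fell, beside the same 5.35% and 8.34%. The most abundant, printed above with its T run, had 38 and 26 reads in NS-KO D0 libraries, against 5 and 5 reads in WT D0 libraries (log2 fold change 2.94, SE 0.64, adjusted p = 0.011).

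Reads listed under the mt-Val-TAC precursor were 15.2% and 19.2% of tRNA reads in NS-KO D0 livers, against 5.05% and 6.20% in WT D0 livers. As a part of type Other they overlapped, with 21.9% and 27.45% in NS-KO D0 livers and 22.2% and 22.3% in WT D0 livers. The sum of Other reads of mt-Val-TAC held 155700 and 195000 CPM in NS-KO D0 livers, against 51160 and 62840 CPM in WT D0 livers (log2 fold change 0.23, SE 0.36, adjusted p = 0.72).

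Other was in this way a mixture. mt-Ser-GCT reads from the first base to the anticodon arm were 19.1% and 14.7% of it in NS-KO D0 livers, against 7.59% and 7.425% in WT D0 livers. The same stretch of Glu-CTC was 4.14% and 4.52% in NS-KO D0 livers, against 16.2% and 12.4% in WT D0 livers.

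Sums were also grouped by the methyltransferase known to act on the tRNA. NSUN2 marks many tRNAs, but only Asp-GTC, Gly-GCC, Val-AAC and Leu-CAA were taken for it. Its other substrates stayed among all sums, so this does not set substrates against other tRNAs. Of 40 sums that contain any of these, 12 fell and 1 rose under TMM scaling, beside 9.61% and 4.98% of all sums. Their median log2 fold change was -0.83. Scaled by library size alone, 3 fell and 6 rose, beside 2.14% and 40.9% of all sums, with a median of 0.54. Of 32 sums of the DNMT2 substrates Asp-GTC, Gly-GCC and Val-AAC, 11 fell and 1 rose, with a median of -0.92, and with library size alone 3 fell and 4 rose, with a median of 0.43, beside the same shares of all sums. The lists share these 32 sums, so they are not separate evidence. Leu-CAA, the tRNA in which NSUN2 also marks the anticodon, had 8 sums, most of them listed under other leucine tRNAs too. Of these 1 fell and none rose (median -0.24), and with library size alone none fell and 2 rose (median 1.13), beside the same shares of all sums.

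Reads were shorter in NS-KO livers, and at equal depth more distinct sequences were seen. Their mean length was 24.65 and 24.4 nt in NS-KO D0 livers, against 29.4 and 28.9 nt in WT D0 livers, and outside tRF-5c 23.5 and 23.5 nt in NS-KO D0 livers, against 25.4 and 25.2 nt in WT D0 livers. Within tRF-1s it was 17.8 and 17.7 nt in NS-KO D0 livers, against 18.4 and 18.8 nt in WT D0 livers. Within tiRNA-5 it was 32.15 and 32.2 nt in NS-KO D0 livers, against 33.5 and 33.55 nt in WT D0 livers.

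Of 75 sums by subtype and length, 2 rose (2.67%) and 4 fell (5.33%), or 8%. With library size alone 53 rose (70.7%) and 3 fell (4%), or 74.7%. tRF-5c of 31 nt held 87460 and 60550 CPM in NS-KO D0 livers, against 562100 and 478100 CPM in WT D0 livers, and fell by 4.25 on the log2 scale (SE 0.72, adjusted p = 0.0063). tRF-1 of 16 nt held 30180 and 42040 CPM in NS-KO D0 livers, against 5035 and 6583 CPM in WT D0 livers, and rose (log2 fold change 1.21, SE 0.25, adjusted p = 0.013). tRF-1 of 17 nt rose likewise (1.25, SE 0.22, adjusted p = 0.0063).

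The number of sequences at a CPM of at least 20 was 4259 and 9758 in NS-KO D0 libraries, against 1844 and 2127 in WT D0 libraries, but this counts every single read of NS-KO D0 replicate 2, where 1 read exceeds 20 CPM. At a CPM of at least 50 there were 1856 and 1826 sequences in NS-KO D0 libraries, against 820 and 1005 in WT D0 libraries. With every library thinned to 46937 reads, 9883 and 9758 sequences were seen in NS-KO D0 libraries, against 4756 and 5671 in WT D0 libraries. Thinning leaves the larger tRF-5c share of WT libraries in place. The ratio of expressed sequences, 3.53 over all reads, was 1.42 among reads outside tRF-5c. Thinned tRF-5c sequences were fewer in NS-KO D0 libraries, 539 and 528, against 677.5 and 730.4 in WT D0 libraries. tRF-1 sequences at 50 CPM or more numbered 129 and 137 in NS-KO D0 libraries, against 37 and 53 in WT D0 libraries, and tRF-5c sequences 137 and 134 in NS-KO D0 libraries, against 265 and 287 in WT D0 libraries.

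Reads without a mismatch were 58.5% and 59.15% in NS-KO D0 livers, against 44.2% and 45.3% in WT D0 livers. Most mismatches lay at the last base of the read, in 28.3% and 27.4% of reads in NS-KO D0 livers, against 46.3% and 44.4% in WT D0 livers. Within tRF-5c alone the last base differed in 43.7% and 41.1% of reads in NS-KO D0 livers, against 53.85% and 53.6% in WT D0 livers. Among perfectly matched reads alone, the share of 5′ fragment ends within or beyond the anticodon was higher in NS-KO D0 livers by 19.7 percentage points, close to the 19.5 points over all reads.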

How the data were processed

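Small RNA of 14 to 40 nt from whole livers was treated before library construction to remove aminoacyl groups, cyclic phosphates and the m1A and m3C marks, so that fragments carrying these could be ligated and copied. The authors checked reads with FastQC, trimmed them with cutadapt and aligned them with Bowtie, allowing 1 mismatch, first to mature and then to precursor tRNAs. Tool versions are not given in the sources used here. The deposited values are whole-number read counts per sequence, library and matching tRNA, in a table that also holds text lines. For this reason the table was not taken as a count matrix and edgeR was not run. The authors' subtypes were kept, and 31 sequences listed as Other and under a named subtype took the named one. The table was checked against each library's own file.

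Each sequence was counted once. Single sequences and sums by subtype and isodecoder, by position and by subtype and length were expressed as log2 CPM with TMM factors and a prior count of 2, and fitted with limma 3.58.1 in R 4.3.3 with a trend, using 1 mean per group over all 12 libraries. Features needed 10 reads at the median library size in at least 2 libraries and 15 reads in all. p-values were adjusted by Benjamini-Hochberg over each family, with a threshold of 0.05. The script was tested on simulated data. Named sums are the 10 highest and 10 lowest called per family, the most abundant fragment per subtype, all tRF-1 sums by count, and the lists of the text, all of which were chosen with earlier results of these data known, as were the members. Sums outside this rule, such as tRF-1 of Arg-ACG, were chosen after their values were seen. Alternatives were library size alone, library size outside tRF-5c, voom weights, a prior count of 0.5, the 4 D0 libraries alone, a replicate block, perfect matches alone, other filters, thinning, and leaving out each library.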

Additional observations from a re-analysis of the deposited data

Results flagged for a closer look

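The difference between NS-KO and WT livers at D0 was set against that at D3, 3 days after injury, by an interaction term in limma over the 281 sums, and 5 of the named sums differed between the days (adjusted p under 0.05). The values are the log2 difference at D0 less that at D3. tRF-1 of Met-CAT differed by 1.55 (adjusted p = 0.027), tRF-3b of Glu-TTC by 1.92 (adjusted p = 0.01) and tRF-5b of Leu-CAG by 1.91 (adjusted p = 0.027), so the difference between NS-KO and WT livers was more positive at D0 than at D3. tRF-5c of Gly-CCC differed by -6.34 (adjusted p = 0.0037) and tRF-5c of Gly-GCC by -4.04 (adjusted p = 0.013). The named sums are those called at D0 with the highest and lowest log2 fold changes there. This choice alone favors a larger difference at D0 than at D3, and all 5 went in the direction of their D0 call. The 5 are therefore no independent evidence that the days differ. Over all sums 36 differed between D0 and D3, 5 of them positive and 31 negative. Scaled by library size alone, 65 differed, 51 of them positive and 14 negative. The settings did not call the same sums, so these counts do not show that a sum turned. Sums called in both settings kept their sign. Among them were the 5 named sums (3.21, 3.5, 3.49, -4.72 and -2.38 with library size alone, in the order above). Between D0 and D27 none passed in limma, and 31 had an unadjusted p under 0.05.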

How the results depend on the processing

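Counts of calls moved with the scaling, the samples in the fit and the filter. With library size alone they were 583 for fragments (320 in the analysis reported), 121 for sums by subtype and isodecoder (41), 202 for sums by position (29) and 56 for sums by subtype and length (6). With the 4 D0 libraries alone they were 645, 102, 108 and 27. With perfect matches alone, 57 of 1170 fragments and 25 of 230 sums by subtype and isodecoder were called. Scaling by reads outside tRF-5c gave 12 sums by subtype and length, and voom weights 19 sums by position. Keeping sequences that reached 20 CPM anywhere gave 87 fragments. With no filter there were 0 fragments (944 higher and 1466 lower at an unadjusted p under 0.05 in limma), 12 sums by subtype and isodecoder and 14 by position.

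Leaving out 1 library gave 55 to 162 fragments (162 and 111 without NS-KO D0 replicates 1 and 2, 55 and 126 without WT D0 replicates 1 and 2), 0 to 8 sums by subtype and isodecoder (0 without WT D0 replicate 2), 0 to 0 sums by position (24 to 49 in either direction at an unadjusted p under 0.05) and 0 to 4 sums by subtype and length (0 without NS-KO D0 replicate 2 or WT D0 replicate 1, with 5 to 11 per direction at an unadjusted p under 0.05). With the replicate number as a block, 297 fragments were called (111 higher and 186 lower), 29 sums by subtype and isodecoder and 30 by position. The numbers do not pair the livers: 4 of 15 pairs of groups had deviations correlated above 0.1, and the D0 pair 0.0629. edgeR was not run.

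In percentage points, the difference in the tRF-5c share (-54.0) was -47.4 with perfect matches and -21.7 with reads listed under 1 isodecoder. That of Other (44.2) was 37.7 and 17.8, and 1.9 among reads outside tRF-5c. That of tRF-1 (7.76) was 8.99 and 6.65, and 5.2 outside tRF-5c. That of tRF-3a (0.678) was 0.0492 with perfect matches and reversed to -0.847 with 1 isodecoder and to -3.44 outside tRF-5c. That of all reads listed under mitochondrial tRNAs (30.8) was 28.2 and 19.0, and 11.6 outside tRF-5c. The ratio of expressed sequences (3.53) was 1.42 outside tRF-5c. The difference in mean length (-4.61 nt) was -1.79 nt outside tRF-5c and -3.15 nt with 1 isodecoder. That of ends within or beyond the anticodon (19.5) was 14.4 outside tRF-5c and 24.8 with 1 isodecoder. Leaving out 1 library gave -57.6 to -50.4 for tRF-5c, 0.19 to 1.17 for tRF-3a (lowest without WT D0 replicate 1, highest without WT D0 replicate 2) and 2.15 to 4.91 for the ratio of expressed sequences (2.15 without NS-KO D0 replicate 2).

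Among named features, the log2 fold change of the Val-CAC trailer junction (-1.99) reversed to 0.25 with perfect matches, and those of tRF-3a of 17 and 18 nt (-1.07 and -0.94) to 0.35 and 0.48 with library size alone. No other of the 10 highest and 10 lowest calls of a kind reversed. Among values outside these, library size alone reversed 17 of 65 nuclear 5′ sums, 2 of 26 tRF-1 sums, 6 of the 41 calls by subtype and isodecoder, 5 of the 29 by position, and the most abundant fragment of 3 of 9 subtypes. The cause of these changes was not tested.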
